A study of Mus musculus with 9 samples.

Results

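The genes of the cytosolic ribosomal proteins were followed in normal mammary fibroblasts grown with or without carcinoma cells. Members were taken by name: every gene whose symbol begins with Rpl or Rps and a digit, together with Rplp0, Rplp1, Rplp2 and Rpsa, leaving out the ribosomal S6 kinases and names containing -ps. This gave 84 of the 11931 genes in the deposited counts. Of these, 42 encode proteins of the large subunit, 31 encode proteins of the small subunit and 3 encode the P stalk, the flexible arm of the large subunit to which elongation factors bind. A further 7 are paralogues or retrocopies of such genes (Rpl22l1, Rps27l, Rpl36al, Rpl7l1, Rpl39l, Rps4l and Rpl37rt). The last, Rps19bp1, shares the naming pattern but encodes a nucleolar protein that binds Rps19 and is not itself a ribosomal protein.

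Female BALB/c mice, 12 weeks of age, gave the mammary fat pads from which the fibroblasts were prepared, and the cells had 1 week to recover on collagen. They were then kept as monocultures for 5 days or received 4T1-GFP cells 24 h after plating and were co-cultured for 3 or 5 days, with 3 libraries in each of the 3 groups. 4T1 is a mouse mammary carcinoma line, which here carried green fluorescent protein, and the fibroblasts were recovered by sorting for cells that lacked GFP and carried podoplanin (GFP- PDPN+). Since no monoculture of 3 days was analysed here, time and the carcinoma cells cannot be told apart in the 3-day comparison with monoculture, whereas at 5 days the culture times match.

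A ribosome joins a small subunit, which decodes mRNA, to a large subunit, which forms the peptide bond, and each subunit holds rRNA and one copy of most of its proteins. The mRNAs of these proteins are among the most abundant in growing cells. Many begin with a C followed by a run of pyrimidines, the terminal oligopyrimidine (TOP) start, through which mTORC1 signalling controls their translation. Several ribosomal proteins have paralogues whose level is linked to that of the main gene, and mouse ribosomal protein genes have left many processed pseudogenes in the genome.

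Libraries held between 1048471 and 3567326 reads in genes, and the monocultures (mean 2966627) were deeper than the co-cultures (1632228 after 3 days, 1806567 after 5). Nothing in the labels says whether replicates were separate cultures or animals, so p-values measure the spread between these libraries. All 12 fibroblast markers were present, with summed normalised counts of 54120 to 71408 in monoculture, 50690 to 62357 at 3 days and 47811 to 61537 at 5 days. Of these 12, 5 were called lower at 3 days (Col3a1, Pdgfra, Pdgfrb, S100a4 and Thy1), and at 5 days the same 5 and Dcn were lower and Vim was higher. The 17 markers of epithelial and carcinoma cells that were in the table summed to 57.3 to 84.0, 1138 to 1308 and 1119 to 1572, and Cldn3, Elf3 and Grhl2 were at 0 in all monocultures. Of 15 such markers tested, 14 were higher at each time of co-culture. The 2 basal markers in the table summed to 0.6 to 9.6, 44.6 to 66.4 and 39.6 to 49.9. For macrophages the 4 markers present summed to 70.1 to 240.4, 109.6 to 310.5 and 54.9 to 136.0, with Ptprc and Adgre1 not among the genes, and the 1 endothelial marker present lay between 0.0 and 11.8. The part of other cell types, or of the change in fibroblast markers, in the results on ribosomal protein genes was not tested.

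As a group the ribosomal protein genes were abundant, and they took a larger share of the counts in every co-culture library than in any monoculture library. Their share of all normalised counts was 9.52%, 10.6% and 10.2% in the monocultures, 10.6%, 11.9% and 11.3% at 3 days, and 10.8%, 11.4% and 12.1% at 5 days. The group means were 10.1% ± 0.538, 11.3% ± 0.636 and 11.4% ± 0.667 (SD, n = 3). The gap between the groups was narrow, from 10.5893% in the highest monoculture to 10.6246% in the lowest co-culture. In sorted cells measured in bulk, more cells of a type and more RNA per cell cannot be told apart. The median of the members' mean normalised counts was 2005, against 42.7 for all tested genes, and 53 members averaged at least 1000. The 10 highest members, led by Rplp1, Rpl4 and Rpl41, held 33.5% of the members' sum.

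**Figure D1:**
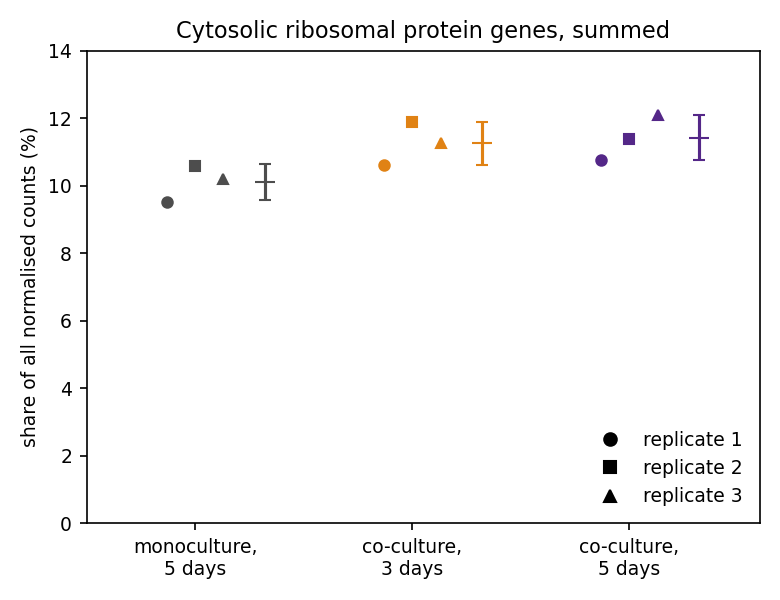
Share of all normalised counts held by the 84 genes (y axis, percent, from 0) in each library, by culture group (x axis), with symbols for replicates 1 to 3 and the group mean ± SD beside them. Every co-culture library lies above every monoculture library, by a narrow margin (10.6246% against 10.5893%).

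Not all members could be followed equally well. Rpl21, Rps15a and Rpl30 did not reach a value of 5 in 3 libraries and were not tested: Rpl21 had 10, 5 and 1 reads in the 3 groups, Rps15a 18, 1 and 4, and Rpl30 10, 4 and 7. Rpl34, Rps27, Rpl22l1, Rpl29, Rpl5 and Rpl15 were tested with means under 50. Counts at the 3′ end can be split or lost where a gene's last bases recur elsewhere in the genome. Of the 82 members with a value, 55 had more than 50% of the 50-base words in their last 300 transcript bases in at least 1 other annotated gene, and 13 had none shared (GENCODE M21, mm10). The percentage counts words found in any other gene, so no single gene need hold them all, and the transcript with the highest share was taken. Rps4l and Rpl37rt, annotated as pseudogenes, had no value, because only protein-coding transcripts of members were scanned. Among the 9 members with means under 50, 8 were over that limit, the exception being Rpl5 at 0%, as were 47 of the other 73. Across the 82 members the rank correlation of the shared percentage with the mean level was -0.11. Levels are therefore compared between cultures for each gene and not between genes.

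The pyrimidine start that gives TOP mRNAs their name was scored at some annotated starts of the members and not at others. In RefSeq start windows (GRCm38.p6, the assembly of mm10), 63 members had 74 annotated starts. A start was scored where a C lay within 5 bases of the annotated first base on the transcribed strand. The C had to open a run of at least 5 letters that were all C or T. Runs further from the annotated first base were not scored, so a member without a scored run may still have such a start. A run was scored at 31 member starts (41.9%), against 19.9% of 10438 starts of tested genes and 18.3% of all 32851 starts. Called members without a scored run also include Rpl36a, Rps4x, Rpsa and Rpl24, which are not shown, so the choice below favours starts with a run. The windows belong to other called members, with the run in capitals, 12 bases before the annotated first base and 18 from it.
Rps24: gcgctggggtCCTTCCTTgcgcgttgatat
Rpl35a: gggcttgCCTTCCTCTTTCCgccatcttgg
Rpl38: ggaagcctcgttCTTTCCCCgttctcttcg
Rps21: cgaggacccgCCCTCCTgcccaatagtgct
Rps27l: ctcctccccgccgCCTCTatcccggaagtt
Rps6: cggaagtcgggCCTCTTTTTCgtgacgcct
Rps2: cagtcgagatctcgcgCTTCTTggagcact
Rpl22: gccctgggaaaagcaatagctggccgatcg
Rpl4: cttttcctgtgggagcagccgggtagagag
These windows lie at chr14:24490666-24490695 for Rps24, chr16:33056470-33056499 for Rpl35a, chr11:114668568-114668597 for Rpl38, chr2:180257367-180257396 for Rps21 and chr9:66946074-66946103 for Rps27l, all on the plus strand. Rps6 is at chr4:86857350-86857379 on the minus strand, Rps2 at chr17:24720051-24720080, Rpl22 at chr4:152325714-152325743 and Rpl4 at chr9:64173375-64173404, the last 3 on the plus strand. Rps24, Rpl35a, Rps21 and Rps27l also have other annotated starts, at which no such run was found. Among the windows shown the run was the longest in Rpl35a (13 bases) and the shortest in Rps27l (5 bases). No run was scored at the RefSeq starts of Rpl22 and Rpl4. The Rpl4 window nonetheless opens with cttttcct, at the GENCODE start of the gene (64173375). That is 12 bases before the RefSeq first base, outside the 5 bases allowed. Members with the start include both genes that were higher in co-culture, such as Rps24 and Rpl35a, and genes that were lower, such as Rps6 and Rps2.

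After 3 days of co-culture a few ribosomal protein genes differed from monoculture, most of them upward. Rps27l, Rpl37rt, Rpl4, Rpl24, Rpl37 and Rps24 rose, and Rpl22 and Rpl5 fell. With limma on log2(normalised count + 1), adjusted over all 10639 tested genes with a threshold of 0.05, 8 of the 81 tested members were called (9.88%), against 20.0% of all tested genes. The 6 higher members compare with a background of 10.6% and the 2 lower ones with 9.37%, so the share called was below that of the table as a whole in each direction. The median log2 fold change was 0.17 over the members and 0.00 over all tested genes, and 58 of 81 members (71.6%) had a positive value against 50.1% of all tested genes. Every co-culture library lay above every monoculture library for 23 members (28.4%), against 19.3% of all genes, and below for 4 (4.94%), against 18.1%.

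After 5 days the number of called members was larger. Here 17 members rose and 4 fell, 21 of 81 in all (25.9%), against 24.0% of all tested genes. The shares in the 2 directions were 21.0% higher against a background of 12.6%, and 4.94% lower against 11.4%. The median log2 fold change was 0.22 over the members and -0.01 over all tested genes, and 61 members (75.3%) had a positive value against 49.4%. Libraries did not overlap for 30 members that were higher (37.0%, background 20.8%) and 5 that were lower (6.17%, background 20.1%). With quantile normalization, which forces the same distribution on each library, 11 members were higher and 5 lower at 5 days. At 3 days 3 were higher and 2 lower. The share of all tested genes called with that normalization is not given here. Both comparisons use the same monoculture libraries, so that they do not support each other.

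**Figure D2:**
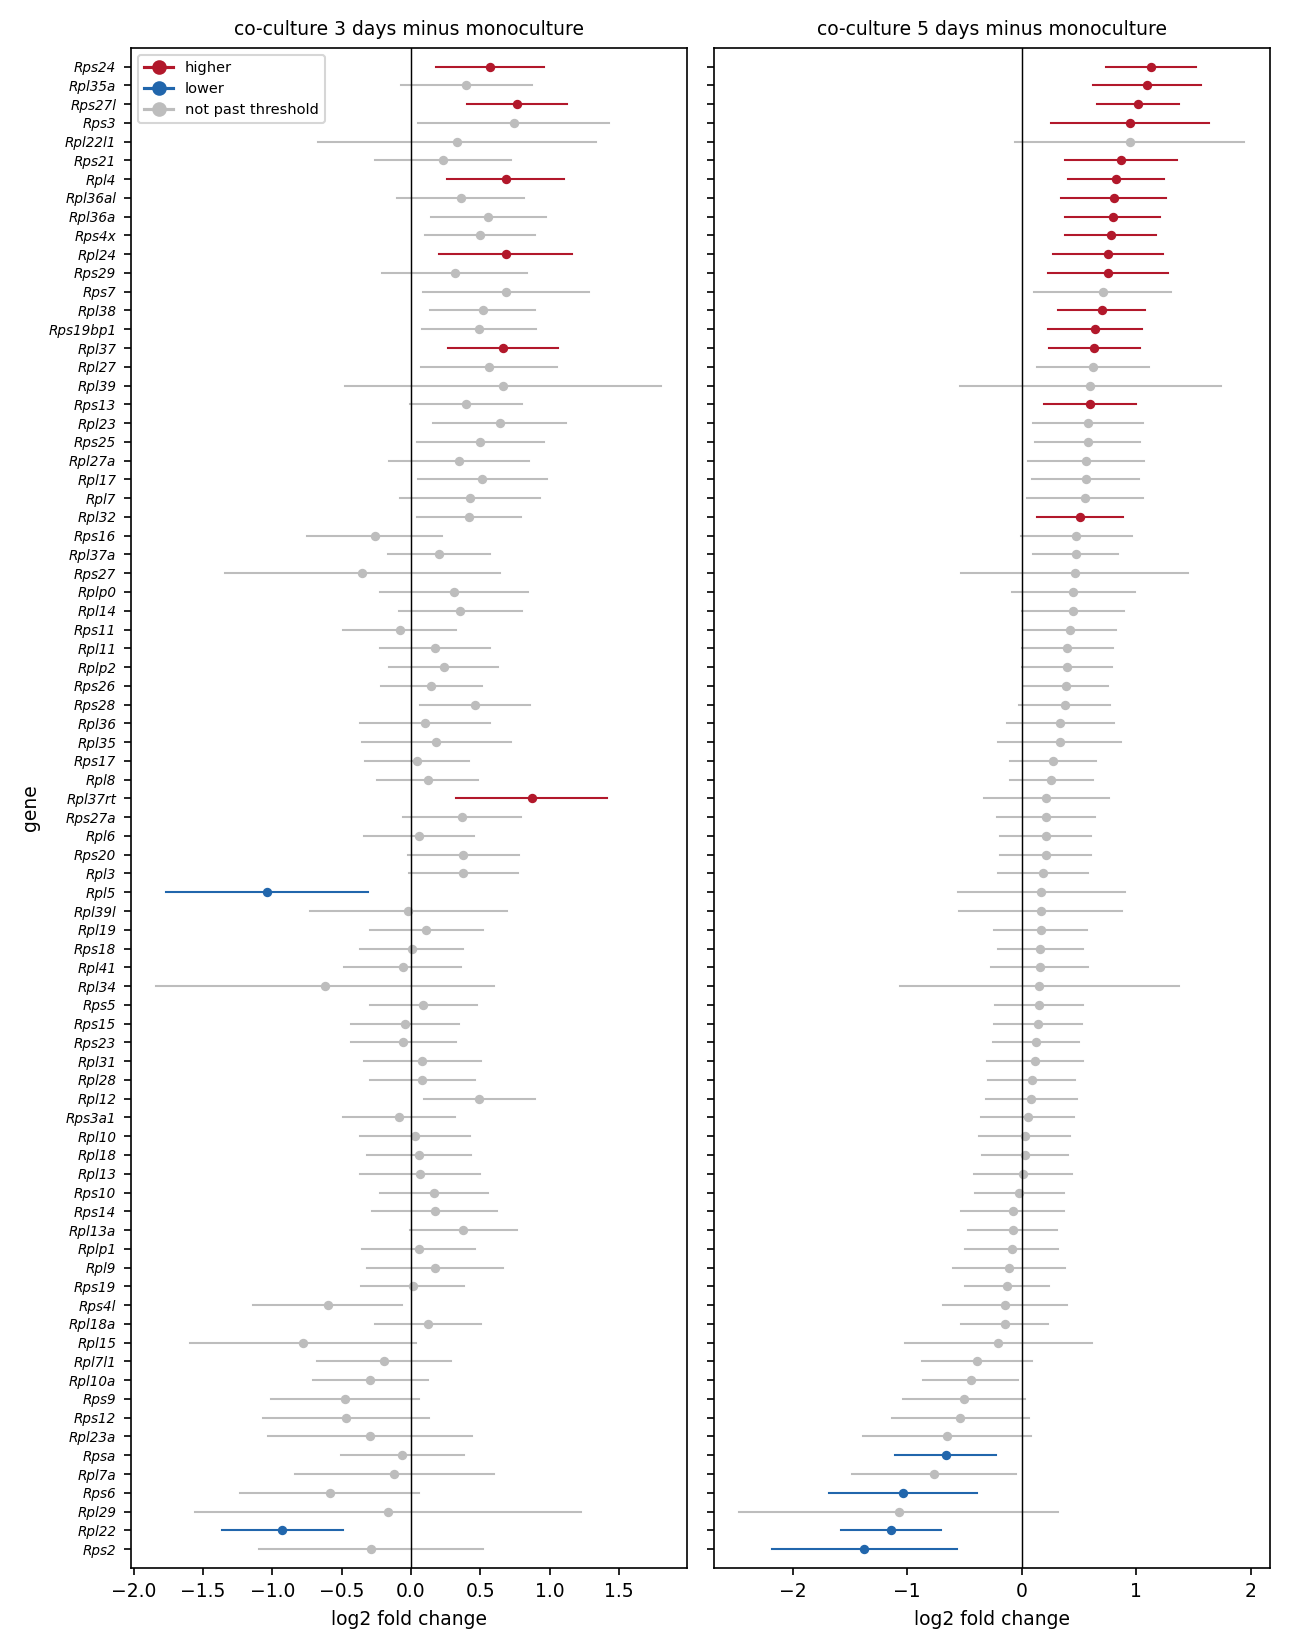
Log2 fold change of 80 of the 81 tested members (points, with 95% limma intervals) at 3 days (left) and 5 days (right) of co-culture against monoculture, ordered by the 5-day value. Red marks the 6 and 16 drawn genes called higher, blue the 2 and 4 called lower, and grey those that did not pass; most points lie to the right of 0 in both panels.

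The shift was not equal among libraries. Set against the monoculture mean of each gene, the members' median log2 deviation was 0.09, 0.28 and 0.15 in the 3-day libraries and 0.21, 0.33 and 0.33 in the 5-day libraries, whereas that of all tested genes stayed between 0.00 and 0.02 in these 6 libraries. The monocultures were at -0.07, 0.05 and 0.00. Replicate 1 of the 3-day co-culture, the shallowest library, was the lowest of its group for 42 of 81 members, and replicate 3 of the 5-day co-culture was the highest of its group for 46. Members with means of at least 1000 varied within groups by a median SD of 0.21 on the log2 scale (53 genes), against 0.25 for the 223 other genes at that level. The most variable was Rpl29, with 113.9, 10.1 and 10.9 in monoculture, 28.2, 12.5 and 26.4 at 3 days, and 9.0, 15.8 and 8.7 at 5 days, where a single monoculture library set the mean.

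**Figure D3:**
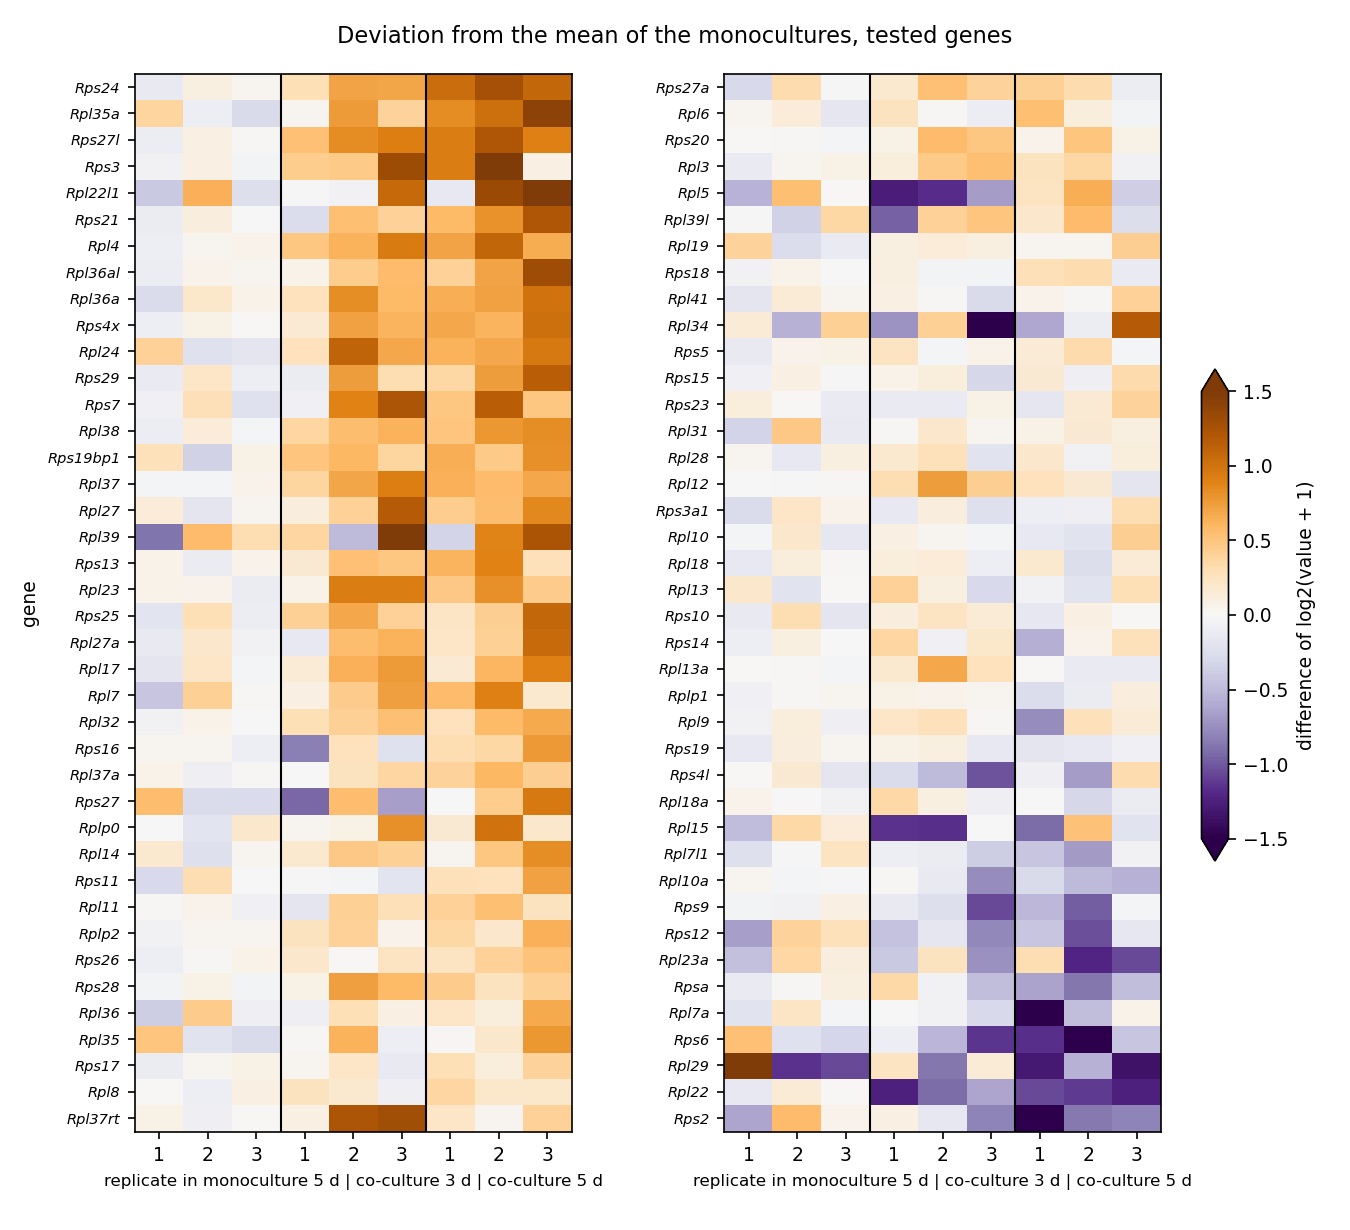
Difference of log2(value + 1) from the gene's monoculture mean (colour, limited to ±1.5 by the scale) for 80 of the 81 tested members (rows, in the order of the 5-day change) in the 9 libraries (columns). The top 3 rows of the left panel, Rps24, Rpl35a and Rps27l, are orange in all 5-day libraries, and the lowest rows of the right panel, from Rpsa to Rps2, are mostly purple there, with pale or orange cells for Rpl7a in replicate 3.

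In the small subunit, 7 of 30 tested genes rose (23.3%, background 12.6%) and 3 fell (10.0%, background 11.4%) at 5 days. At 3 days 1, Rps24, rose (3.33%, background 10.6%). Rps24 (chromosome 14, 24487125 to 24496959, plus strand), a small-subunit protein mutated in some families with Diamond-Blackfan anaemia, had normalised counts of 2833, 3336 and 3171 in monoculture, 3836, 5083 and 5039 at 3 days and 6395, 7499 and 6572 at 5 days. The 3 groups did not overlap, and replicate 1 was the lowest at 3 days. Rps24 rose by 0.57 ± 0.18 (log2, SE) at 3 days (limma adjusted p = 0.039) and by 1.13 ± 0.18 at 5 days (limma adjusted p = 0.00030), the largest rise among members at 5 days. The difference of 0.56 between 5 and 3 days did not pass (limma adjusted p = 0.081).

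Rps4x (chromosome X, 102184941 to 102189394, minus strand), the X-linked small-subunit gene, had 607, 682 and 647 in monoculture, 719, 1066 and 986 at 3 days, and 1037, 985 and 1317 at 5 days. Every co-culture library was above every monoculture library, and the call was made at 5 days (0.78 ± 0.19, limma adjusted p = 0.0063) and not at 3 days (0.50 ± 0.19, limma adjusted p = 0.071). Rps21 had 4024, 4693 and 4326 in monoculture, 3628, 6345 and 5766 at 3 days and 6488, 7570 and 10087 at 5 days. Replicate 3 of the 5-day group was far above the others, and without it the rise of 0.87 in Rps21 had a limma adjusted p of 0.058. Rps3, which lies at the mRNA entry of the small subunit, had 345, 381 and 346 in monoculture, 485, 494 and 893 at 3 days, and 681, 1252 and 380.8 at 5 days. At 5 days its rise of 0.94 ± 0.32 (limma adjusted p = 0.044) came from libraries that spread more than 3-fold, and replicate 3 lay only just above the highest monoculture (380.8 against 380.7).

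Rps29 and Rps13, which encode further proteins of the small subunit, also rose at 5 days. Their log2 fold changes were 0.75 ± 0.25 and 0.60 ± 0.19. Rps13 had 1540.5, 1360.3 and 1523 in monoculture and 2255, 2744 and 1782 at 5 days, with groups that did not overlap.

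The small-subunit genes that fell at 5 days were Rps2, Rps6 and Rpsa. Rps2 (chromosome 17, 24718116 to 24721929, plus strand), whose protein is methylated by the arginine methyltransferase PRMT3, had 1804, 4102 and 2888 in monoculture, 2946, 2489 and 1592 at 3 days, and 504, 1533 and 1586 at 5 days. The 5-day libraries all lay below the monocultures, replicate 1 by the most, and the monocultures themselves differed more than 2-fold. Rps2 fell by 1.37 ± 0.38 at 5 days (limma adjusted p = 0.015), the largest fall among members, and its value at 3 days was -0.29 (limma adjusted p = 0.64). DESeq2 on whole reads gave an adjusted p of 0.054 for the 5-day fall.

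Rps6 (chromosome 4, 86854660 to 86857412, minus strand), the protein that S6 kinases phosphorylate, had 441, 263 and 245 in monoculture, 287, 212 and 138 at 3 days, and 136, 106 and 226 at 5 days. It fell by 1.04 ± 0.30 at 5 days (limma adjusted p = 0.020), with groups that did not overlap, although monoculture replicate 1 was well above the other two. Rpsa (chromosome 9, 120127689 to 120132369, plus strand), a small-subunit protein also known as the laminin receptor, had 3083, 3390 and 3585 in monoculture, 4249.5, 3224 and 2407 at 3 days, and 2143, 1824 and 2409.5 at 5 days. It fell by 0.66 ± 0.21 at 5 days (limma adjusted p = 0.029), and at 3 days the groups overlapped on both sides. The 3′ ends of these 3 genes recur in many copies: 79.3% of the words of Rps2 were found in 51 other genes, 83.3% of those of Rps6 in 11 and 74.1% of those of Rpsa in 18. Genes that rose at 5 days were divided, with 9 above 50% of shared words and 8 at or below it. Those above included Rps24 (72.1% in 9 other genes), Rpl35a (66.1% in 17), Rpl24 (81.3% in 9) and Rps13 (88.1% in 6). Rpl38 (65.3% in 5), Rps4x (62.2% in 7) and Rpl36al (70.1% in 3) were above it too. Those at or below included Rpl4 and Rpl37 (0%), Rps3 (7.17%), Rps27l (21.9%), Rps21 (36.25%) and Rps29 (48.6%). Rpl22, the other member called lower, had 23.9%. Counts of the genes with shared 3′ ends, higher and lower, are less certain, and by how much was not tested.

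In the large subunit, 3 of 40 tested genes rose (7.5%, background 10.6%) and 2 fell (5.0%, background 9.37%) at 3 days. At 5 days 7 rose (17.5%, background 12.6%) and 1 fell (2.5%, background 11.4%). Rpl35a (chromosome 16, 33056453 to 33060189, plus strand), another gene mutated in Diamond-Blackfan anaemia, had 547, 396 and 345 in monoculture, 435, 711 and 554 at 3 days, and 757, 856 and 1124 at 5 days. The 3-day libraries overlapped the monocultures, and the 5-day libraries lay above both. Rpl35a rose by 1.09 ± 0.22 at 5 days (limma adjusted p = 0.0020) and did not pass at 3 days (0.40, limma adjusted p = 0.23).

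Rpl4 (chromosome 9, 64173375 to 64178666, plus strand) lines the peptide exit tunnel, and its gene body holds 5 annotated small nucleolar RNAs. The gene had 4647, 5051 and 5112 in monoculture, 6887, 7611 and 9454 at 3 days, and 8070.2, 10524 and 7818 at 5 days. Every co-culture library was above every monoculture library. Rpl4 rose by 0.68 ± 0.20 at 3 days and by 0.82 ± 0.20 at 5 days (limma adjusted p = 0.023 and 0.0065). None of its 3′-end words were found in another gene.

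Rpl38, a protein linked to the translation of Hox mRNAs in the mouse embryo, had 2874, 3390.2 and 3029 in monoculture, 3979, 4559.6 and 4771 at 3 days, and 4364, 5311 and 5466 at 5 days. Rpl36a, on the X chromosome, had 1001, 1396 and 1261 in monoculture, 1446, 2145 and 1811 at 3 days, and 1903, 1995 and 2419.5 at 5 days. Both rose at 5 days, Rpl38 by 0.70 ± 0.18 and Rpl36a by 0.79 ± 0.19 (limma adjusted p = 0.0094 and 0.0074), and both missed the threshold at 3 days (limma adjusted p = 0.052 and 0.055), with no overlap of groups at either time. The 3′ end of Rpl36a was shared completely with 7 other genes. Rpl37, Rpl24 and Rpl32 made up the rest of the rises. Rpl37 and Rpl24 were called at 3 days (0.67 ± 0.19 and 0.68 ± 0.23) and at 5 days (0.63 ± 0.19 and 0.75 ± 0.23), and Rpl32 at 5 days (0.51 ± 0.18).

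Rpl22 (chromosome 4, 152325742 to 152334071, plus strand), an RNA-binding protein of the large subunit needed for the development of αβ T cells, was the only member that was called lower at both times. It had 132, 162 and 147 in monoculture, 61.4, 77.3 and 94.6 at 3 days, and 70.1, 67.1 and 61.2 at 5 days. No co-culture library reached the lowest monoculture. Rpl22 fell by 0.93 ± 0.21 at 3 days (limma adjusted p = 0.0043) and by 1.14 ± 0.21 at 5 days (limma adjusted p = 0.00071), from 780 reads over the monocultures, 216 at 3 days and 199 at 5 days. Rpl5 (chromosome 5, 107900502 to 107909005, plus strand), which with Rpl11 binds MDM2 when ribosome assembly is disturbed, had 19.8, 43.3 and 29.6 in monoculture, 11.6, 12.5 and 18.1 at 3 days, and 35, 46.6 and 22.5 at 5 days. The 3-day libraries were below all others. Rpl5 fell by 1.04 ± 0.34 at 3 days (limma adjusted p = 0.042), on 38 reads in all at that time, and was at 0.17 at 5 days (limma adjusted p = 0.77). Its partner Rpl11 had a log2 fold change of 0.18 at 3 days and 0.40 at 5 days (limma adjusted p = 0.14 at 5 days).

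**Figure D4:**
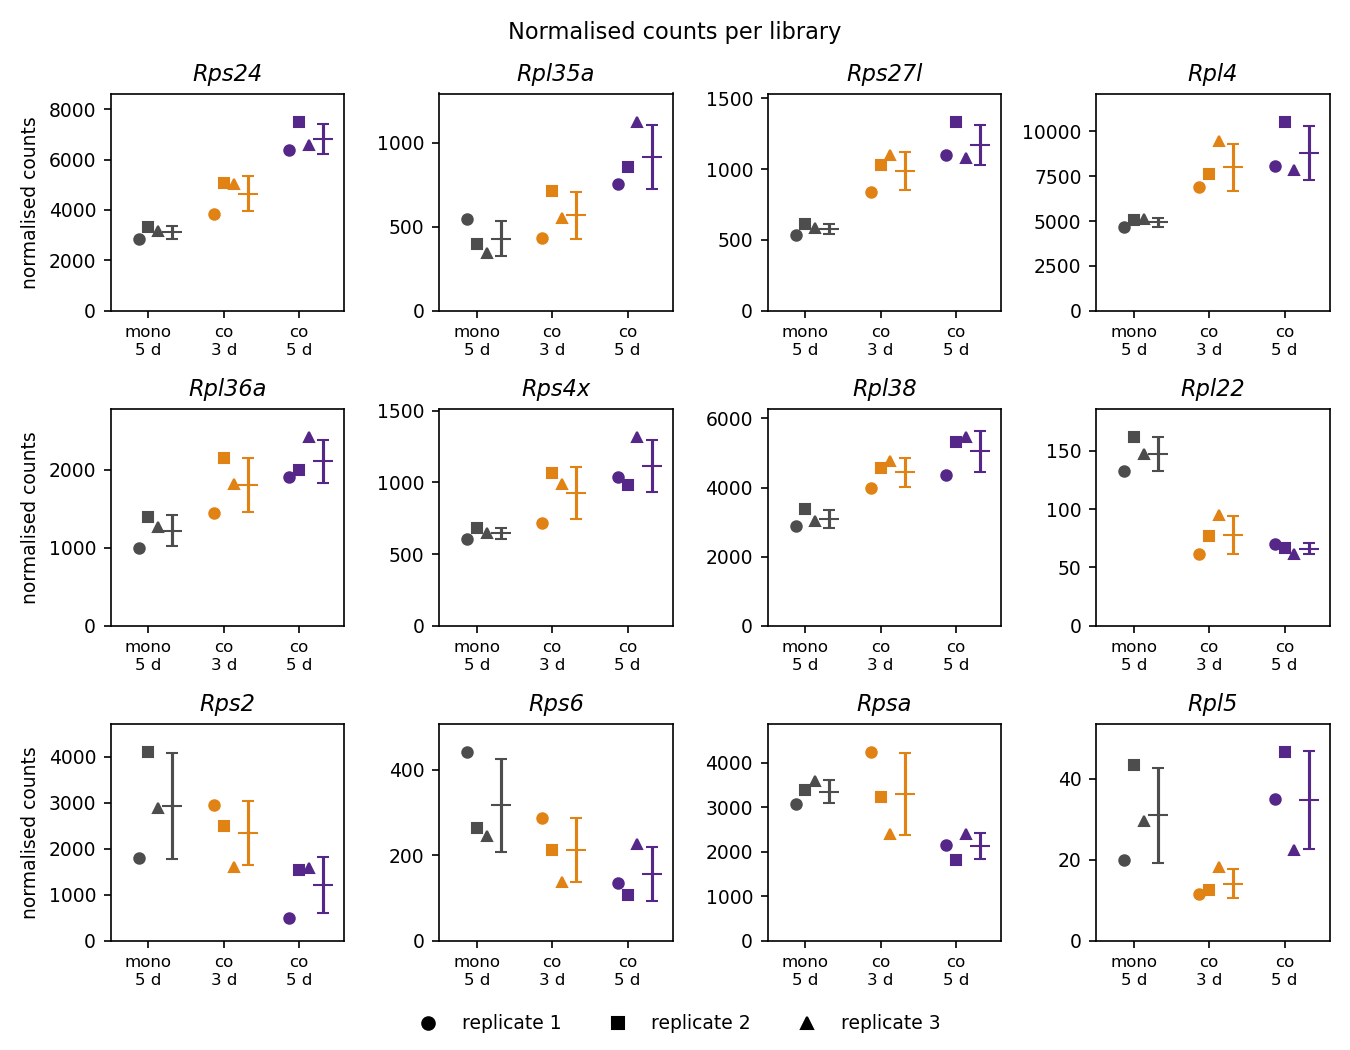
Normalised counts (y axes, each from 0) of 12 called members in the 9 libraries, with symbols for replicates and the group mean ± SD beside them. In Rps24 the 3 groups step upward without overlap, in Rpl22 both co-culture groups lie below the monocultures, and in Rpl5 only the 3-day group is low; Rps2 shows wide spread within groups.

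The P stalk genes did not pass the test. Rplp1 was steady at 11757 to 12591 in monoculture, 12651 to 12891 at 3 days and 10198 to 13246 at 5 days, with log2 fold changes of 0.06 and -0.09, and the first turned to -0.30 under quantile normalization. Rplp2 had 3788, 3994 and 3989 in monoculture and 5023, 4474 and 6112 at 5 days, with no overlap and a log2 fold change of 0.40 (limma adjusted p = 0.14). Rplp0, often used as a reference gene, had 2623.5, 2307 and 3009.9 in monoculture, 2695, 2785 and 4638.5 at 3 days, and 2956, 5266 and 2997.5 at 5 days. A single library stood far above the other two in each co-culture group, and the log2 fold changes of Rplp0 were 0.31 and 0.45 (limma adjusted p = 0.42 and 0.22). Rplp2 was the 1 stalk gene with an unadjusted limma p under 0.05, at 5 days, and edgeR and DESeq2 on whole reads also called 0 of the 3 at either time.

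Of the 7 paralogues and retrocopies, 2 were called higher at each time: Rps27l at both, Rpl37rt at 3 days and Rpl36al at 5 days. This was 28.6% of the 7 at each time, against 10.6% of all tested genes at 3 days and 12.6% at 5 days. Rps27l (chromosome 9, 66946086 to 66949516, plus strand), a paralogue of Rps27 known as a p53 target, had 538, 612 and 583 in monoculture, 839, 1032 and 1096 at 3 days, and 1102, 1334 and 1079.9 at 5 days. All 6 co-culture libraries were above all monocultures. Rps27l rose by 0.77 ± 0.17 at 3 days and by 1.01 ± 0.17 at 5 days (limma adjusted p = 0.0043 and 0.00038), and 21.9% of its 3′-end words were shared with 2 other genes. Rpl37rt, annotated as a transcribed processed pseudogene, had 219, 197 and 208 in monoculture, 221, 485 and 512 at 3 days, and 242, 211 and 275 at 5 days. Its rise of 0.87 ± 0.26 at 3 days (limma adjusted p = 0.025) came from replicates 2 and 3, while replicate 1 stayed just above the monocultures. Rpl36al, the paralogue of Rpl36a, rose by 0.80 ± 0.22 at 5 days (limma adjusted p = 0.012), with 274, 306 and 304 in monoculture and 390, 481 and 728 at 5 days.

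The level of a paralogue was also set against that of its main gene, as a percentage of the main gene's count and as a log2 ratio. The percentage does not depend on the scaling of a library, but the log2 ratio was taken after adding 1 to both values and so does where either gene is low, as in Rpl22l1 and Rps27. In 6 pairs both genes were measured, giving 18 comparisons, and with 3 libraries a side an exact permutation test (two-sided) cannot give a p below 0.1, so that no comparison could pass after adjustment. Rpl22l1, whose mRNA is repressed by the Rpl22 protein, stood at 5.59%, 10.1% and 5.71% of the Rpl22 count in monoculture, 16.3%, 12.6% and 23.6% at 3 days, and 12.8%, 40.2% and 55.1% at 5 days. Every co-culture library was above every monoculture library, and replicate 1 was the lowest at 5 days. The log2 ratio was higher by 1.26 at 3 days and by 2.08 at 5 days (exact permutation p = 0.1 for each, adjusted p = 0.45). Rpl22l1 itself had 7.4, 16.3 and 8.4 in monoculture, 10.0, 9.7 and 22.3 at 3 days, and 9.0, 27.0 and 33.7 at 5 days, did not pass the test (0.94 ± 0.47 at 5 days, limma adjusted p = 0.17), and rested on 59, 36 and 66 reads in the 3 groups.

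The ratio of Rps4l, a second transcribed processed pseudogene, to Rps4x was lower in co-culture. The 3′ ends of Rps4l and Rpl37rt were not scanned for copies in other genes, so their shared percentage is not known. Rps4l stood at 25%, 25% and 20.6% of the Rps4x count in monoculture, 17.3%, 9.99% and 7.47% at 3 days, and 13.8%, 9.56% and 14.3% at 5 days, with no overlap. The log2 ratio differed by -1.10 at 3 days and -0.92 at 5 days (exact permutation p = 0.1 for each, adjusted p = 0.45). Rps4l itself was not called at either time (-0.60 and -0.15, limma adjusted p = 0.11 and 0.73). In the other 4 pairs the ratios of the groups overlapped in each comparison, with exact permutation p between 0.2 and 1. At 3 and 5 days the log2 ratio differed from monoculture by -0.62 and -0.94 for Rpl7l1 to Rpl7, by -0.68 and -0.43 for Rpl39l to Rpl39, and by 1.12 and 0.55 for Rps27l to Rps27, the last on 39, 21 and 31 reads of Rps27 in the 3 groups. The Rpl36al to Rpl36a ratio was nearly level, at 24.5% ± 2.77, 21.3% ± 2.72 and 24.9% ± 4.85 (SD, n = 3), so that the 2 genes rose side by side at 5 days.

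**Figure D5:**
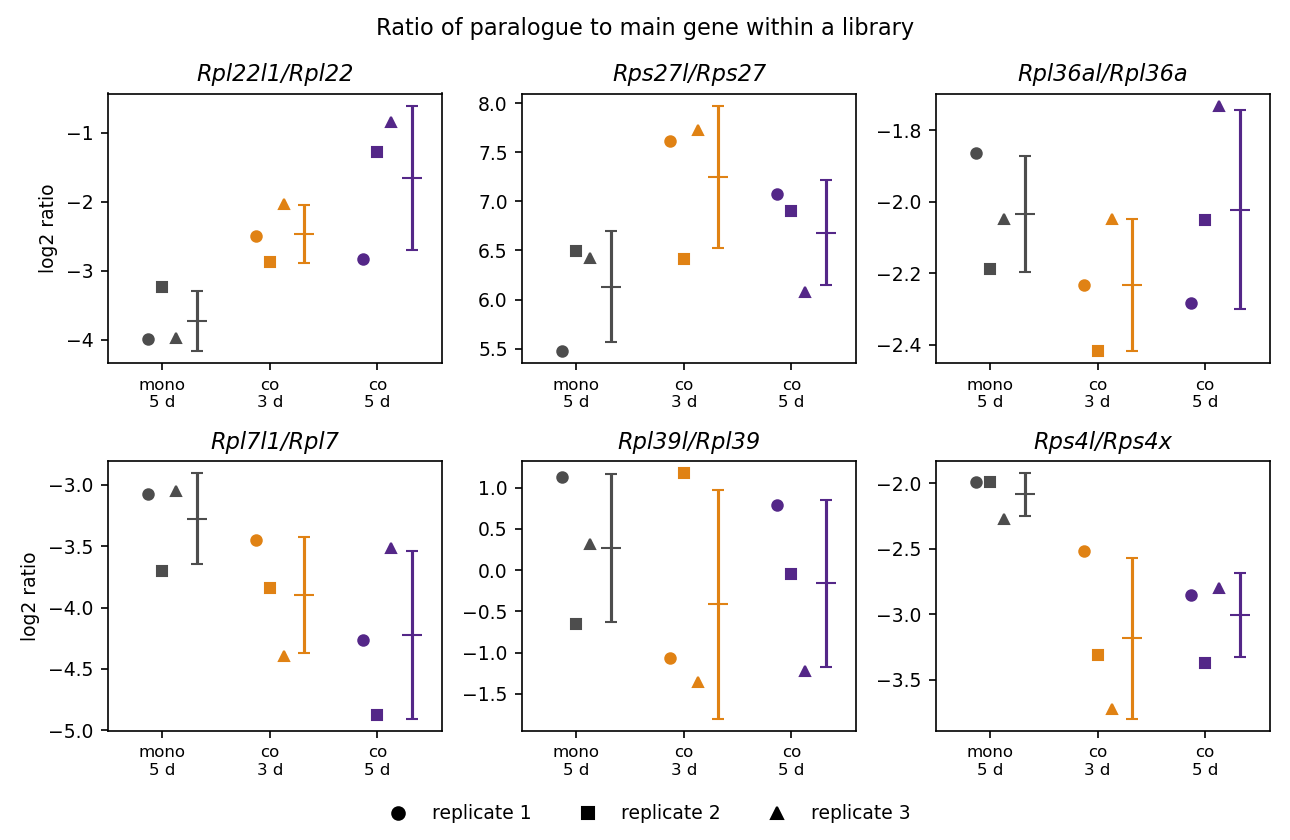
Log2 ratio of the paralogue or retrocopy to its main gene (y axes, not starting at 0) in the 9 libraries for the 6 measured pairs, with the group mean ± SD beside the points. The co-culture libraries lie above the monocultures for Rpl22l1/Rpl22 and below them for Rps4l/Rps4x, and the groups overlap in the other 4 panels.

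Between 5 and 3 days of co-culture few members differed. Rpl5 rose by 1.21 ± 0.34 (limma adjusted p = 0.043) and was the 1 member called (1.23%), against 6.91% of all tested genes, of which 3.2% were higher and 3.71% lower. The median log2 difference was 0.09 over the members and -0.01 over all tested genes, and without replicate 3 of the 5-day co-culture the members' median was 0.01. Of 81 members, 8 were higher in every 5-day than in every 3-day library (9.88%, background 11.7%) and 4 were lower (4.94%, background 12.9%). Rps2 and Rpl35a were among those without overlap, at -1.08 (limma adjusted p = 0.099) and 0.69 (limma adjusted p = 0.074).

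Some calls held whichever library was left out, and others were lost without 1 library or without any 1 of several. At 3 days Rpl22 and Rps27l passed in all 21 alternatives. Rps24 missed without any of the monocultures or without co-culture replicate 2 or 3 (limma adjusted p 0.067 to 0.14), and Rpl4 without the same libraries (0.052 to 0.094). Rpl37 missed without monoculture replicate 1 or 2 or co-culture replicate 2 or 3 (0.055 to 0.082), and Rpl37rt without monoculture or co-culture replicate 2 or 3 (0.063 to 0.12). Rpl24 missed without monoculture or co-culture replicate 2 or 3 or 5-day replicate 1 or 2 (0.055 to 0.20). Rpl5 missed without monoculture replicate 2 or 3, 3-day replicate 1 or 2 or 5-day replicate 1 (0.057 to 0.19), and with reads thinned to the shallowest library (0.29). The number of calls at 3 days was 2 without monoculture replicate 2 or without 3-day replicate 2, and 3 without monoculture replicate 3. It was 4 without 3-day replicate 3, and 15 without 3-day replicate 1. The share of all tested genes called in these fits is not given here.

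At 5 days Rps24, Rps27l, Rpl35a, Rpl36a, Rpl38, Rps4x and Rpl22 passed in all 21 alternatives, and Rpl4 missed only under quantile normalization (0.098). Rps2 missed without monoculture replicate 2 (0.064) or 5-day replicate 1 (0.078). Rps6 missed without monoculture replicate 1 (0.093) or 5-day replicate 1 (0.068) or 2 (0.11), and Rpsa without monoculture replicate 2 (0.07) or 3 (0.093) or 5-day replicate 1 (0.066) or 2 (0.12). Rpl36al and Rps21 missed without 5-day replicate 3 (0.064 and 0.058). Rpl24 missed without monoculture replicate 2 or 3 or 5-day replicate 3 (0.088 to 0.09), Rpl37 without monoculture replicate 1 or 2 or 5-day replicate 1 or 3 (0.051 to 0.064), and Rps19bp1 without monoculture replicate 2 or 3 or 5-day replicate 1 or 3 (0.052 to 0.13). Rps29 missed without replicate 1 or 3 of the monocultures or 2 or 3 of the 5-day group (0.087 to 0.15), and Rps13 without any monoculture or 5-day replicate 1 or 2 (0.055 to 0.15). Rps3 missed without any monoculture, 3-day replicate 2 or 5-day replicate 1 or 2, reaching 0.24 without the last, and Rpl32 without any monoculture, 3-day replicate 2 or 5-day replicate 2 or 3 (0.066 to 0.14). Rpl32 also missed in 6 of the 12 other settings, among them TMM (0.056), factors without the members (0.051), no filter (0.058) and thinned reads (0.056), and Rps3 missed with thinned reads (0.054). The rise of Rpl5 from 3 to 5 days missed without monoculture replicate 3, 3-day replicate 1 or 2 or 5-day replicate 1 or 2 (0.061 to 0.17), and with thinned reads (0.16). Quantile normalization also put Rpl24, Rpl37 and Rpl4 at 3 days and Rpl32, Rpl37, Rps29 and Rps3 at 5 days above the threshold of 0.05 (0.059 to 0.14). A fit of only the compared groups did the same for Rpl24, Rpl37rt, Rpl5 and Rps24 at 3 days (0.05 to 0.071) and Rpl32 at 5 days (0.051).

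Features that the naming rule did not use divided the members only loosely. The 27 tested members with at most 50% of shared 3′-end words had a median log2 fold change of 0.31 at 3 days and 0.45 at 5 days, with 8 higher and 1 lower at 5 days. The 52 members above that limit had medians of 0.10 and 0.16, with 9 higher and 3 lower at 5 days. Across 79 members the rank correlation between the shared percentage and the 5-day change was -0.25, a description over genes that share libraries. Members with a scored pyrimidine start (28 tested) had a 5-day median of 0.16 with 5 higher and 2 lower. The 34 members with annotated starts at which none was scored had 0.39 with 9 higher and 2 lower. These 34 can include genes with a run outside the 5 bases allowed, as at Rpl4. The 30 members that held small nucleolar RNAs in their gene bodies, 58 in all, had a 5-day median of 0.21 over the 28 tested, against 0.26 for the 53 others. Of all tested genes, 12.6% were called higher and 11.4% lower at 5 days. The differences between these classes of members were not tested. Within 250 bases before and 50 after the start, on either strand, the word CCGGAAG occurred in 35.1% of member windows and 17.96% of windows of tested genes, AAGATGGC in 10.8% and 4.44%, and TATAAA in 9.46% and 7.08%.

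Gnb2l1, whose name falls outside the pattern and which encodes the RACK1 scaffold of the small subunit, went from 5479 ± 279 to 7545 ± 762 at 3 days without passing (0.46, limma adjusted p = 0.097). Of 67 tested mitochondrial ribosomal protein genes, which serve a separate ribosome, 4 were higher at 3 days (5.97%, background 10.6%) and 11 at 5 days (16.4%, background 12.6%), and 0 were lower with limma, edgeR or DESeq2 at 3 days, with medians of 0.20 and 0.31. At 5 days DESeq2 called 1 of them lower. Mrpl12 rose the most clearly of these at 5 days, from 172 ± 4.85 to 340 ± 73.3 (0.95, limma adjusted p = 0.0014).

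Of 36 tested initiation factors 5 were higher and 1 lower at 3 days, and 4 higher and 1 lower at 5 days. These calls made up 16.7% and 13.9% of the list, against 20.0% and 24.0% of all tested genes. Eif2b2 and Eif2b3, subunits of the exchange factor for eIF2, rose at both times, Eif2b2 from 109 ± 16.9 to 237 ± 20.1 and 326 ± 23.8, and Pabpc1, the poly(A)-binding protein, which itself has a TOP mRNA, rose from 1754 ± 524 to 3382 ± 336 and 2977 ± 329. Of 12 elongation and termination factors 1, Gspt1, was lower at 3 days, and Eef1e1 and Abce1 were higher and Eef1a1 lower at 5 days, which is 8.33% and 25% of that list against the same backgrounds. Eef1a1, another TOP mRNA, fell from 3895 ± 59.3 to 2005 ± 202 (-0.96, limma adjusted p = 0.0050), so that these TOP genes moved in opposite directions. Without monoculture replicate 2 the 5-day rise of Pabpc1 missed the threshold (limma adjusted p = 0.076), and Abce1 missed it without replicate 1 or 3 of the monocultures or replicate 2 or 3 of the 5-day group (0.089 to 0.11).

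Genes of ribosome production gave calls in single members, at shares below those of all tested genes. For transcription by RNA polymerase I the calls made up 16.7% of the list at each time, for rRNA processing 10.3% and 7.69%, and for assembly factors 5.0% and 0%, against 20.0% and 24.0%. Of 12 tested genes for RNA polymerase I transcription, 2 were higher at 3 days (Rrn3 and Taf1d), and at 5 days Rrn3 was higher and Znrd1 lower. Rrn3, the initiation factor of that polymerase, went from 77.1 ± 9.36 to 140 ± 42.4 and 141 ± 12.1. Of 39 genes for rRNA processing 4 were higher at 3 days and 3 at 5 days, among them Utp3 at both. Of 40 assembly factors 2 were higher at 3 days (Nap1l1 and Rpp38). At 5 days limma, edgeR and DESeq2 called 0 of the 40, and 4 had an unadjusted limma p under 0.05. The 3-day call of Rrn3 was lost without monoculture replicate 3 (limma adjusted p = 0.055) or 3-day replicate 2 (0.085), that of Taf1d without monoculture replicate 1 or 3 or 3-day replicate 2 or 3 (0.051 to 0.079), and that of Rpp38 (0.0495) without any monoculture, 3-day replicate 2 or 3 or 5-day replicate 1 (0.062 to 0.16) and in 7 of 12 other settings (0.05 to 0.097). At 5 days Utp3 was lost without monoculture replicate 2 or 3 or co-culture replicate 2 (0.059 to 0.082) or with thinned reads (0.075), and Znrd1 without replicate 2 or 3 of either group (0.061 to 0.076).

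Among regulators, 2 of 20 tested genes of the mTORC1 list were higher and 1 lower at 3 days, and 1 higher and 3 lower at 5 days (15.0% and 20.0% called, against 20.0% and 24.0% of all tested genes). Eif4ebp1, a repressor of cap-dependent translation, and Sesn2, an inhibitor of mTORC1, rose at 3 days (0.79 ± 0.20 and 1.64 ± 0.44). Eif4ebp2 was lower at 3 days (-0.72 ± 0.21). At 5 days Ddit4, another inhibitor, fell by 0.74 ± 0.22, Sesn3 and Rps6kb2 were also lower, and Mtor was higher (0.63 ± 0.20). With a library left out, the calls of Eif4ebp2, Sesn3 and Mtor held in 5, 6 and 4 of 9 fits. The list of the MYC network holds both MYC proteins, which drive ribosome production in growing cells, and their antagonists. Of its 9 tested genes 1, Mycl, was higher at each time, and 3 were lower: Mxd1 and Mxd3 at both times, Max at 3 days and Mlxip at 5 days. The calls made up 44.4% of this short list at each time, against 20.0% and 24.0% of all tested genes. Mxd1 and Mxd3 encode antagonists of MYC, and Max is the partner of both kinds. Mxd3 fell from 19.8 ± 6.76 to 3.2 ± 0.361 and 4.93 ± 2.83, and its 3-day call was lost with thinned reads (limma adjusted p = 0.059). Mxd1 and Mycl had means under 10, and their 3-day calls were each lost in 5 of the 9 fits with a library left out. On the list of ribosomal stress and p53, 2 of 8 were higher at each time (25%). Of all tested genes, 10.6% were higher at 3 days and 12.6% at 5 days. Cdkn1a, the p21 cell cycle inhibitor and a p53 target as Rps27l is, rose from 1522 ± 131 to 2892 ± 395 and 2409 ± 465, and Mdm4 rose at 3 days from 47.3 ± 3.87 to 102 ± 12.2 and was at 50.8 ± 8.5 at 5 days. Cdkn1a at 5 days missed without monoculture replicate 2 or 3 or co-culture replicate 1 or 2 (limma adjusted p 0.066 to 0.096), Sesn2 without replicate 2 of the monoculture (0.064) or the 3-day group (0.066) and with DESeq2 (0.12), and Ddit4 without monoculture replicate 2 (0.10) or 5-day replicate 3 (0.086).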

How the data were processed

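The 9 libraries were 3′ end mRNA libraries. Per the submitters' processing notes, reads were handled with bcl2fastq, STAR 2.4.2a, HTSeq and mm10; the annotation, strand setting and scaling are not given in the sources used here. What the authors deposited is a signal: gene counts that had been divided by 1 factor for each library. Between 99.98% and 100.0% of the values of a library lay within 0.051 of a whole multiple of the value of 1 read, from which whole reads were recovered. Columns were matched by name. One of them, placed by elimination as the 5-day co-culture of replicate 2, has a name without carcinoma cells. The table holds 18 names turned into dates.

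Genes reaching 5 in 3 or more libraries were tested (10639, with 1292 left out) with limma 3.58.1 in R 4.3.3 (trend) on log2(value + 1), all 9 libraries in 1 model, two-sided, Benjamini-Hochberg over all tested genes. Folds are on that scale and understate changes of low genes. Counts without overlap leave out 2 rows that share a name (10637). Paralogue ratios used exact two-sided permutation tests, adjusted over 18. The members and gene lists were chosen with earlier results of these data known. Members were named by a rule: per comparison the 8 largest rises and falls among called members, every paralogue pair, the P stalk, Rpsa and members under the filter, and up to 3 called genes of each other list; other members named, and the choice among list genes, were made after values were seen. Alternatives covered TMM, other pseudocounts (0.5 and 5), a mean of 20 or more as the filter, or no filter at all, factors without the members, quantile normalization, a replicate block, only the compared groups, edgeR 4.0.16 and DESeq2 1.42.0 on whole reads, thinning and each library left out. The scripts were tested on simulated data. Some results are not reported here. Depth is in reads, and reads that copy 1 molecule are not independent, so that read numbers speak to counting error only.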

Additional observations from a re-analysis of the deposited data

Results flagged for a closer look

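The difference between 5 and 3 days of co-culture passed the limma test (adjusted over all 10639 genes) for 10 of the 326 tested genes that the members and the lists hold together (3.07%), against 6.91% of all tested genes. For these 10 the change against the shared monocultures differed between the times. Among the ribosomal protein genes this was Rpl5, at 1.21 (adjusted p = 0.043). On the other lists, Mrps21 at 1.04 (adjusted p = 0.0039) and Imp3 at -0.92 (0.010) passed in all 21 alternatives, and Mdm4 at -0.999 (0.0096) in all but thinned reads (0.061).

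The other calls were lost in most of the fits with a library left out. Mrpl20, at 0.72 (adjusted p = 0.040), passed in 4 of 9 such fits and 8 of 12 other settings. Bop1, at 0.67 (0.042), passed in 3 of 9 and 10 of 12, and Mrpl18, at 0.65 (0.038), in 2 of 9 and 10 of 12. Ccng1, at 0.65 (0.045), passed in 2 of 9 and 7 of 12, and Nhp2, at 0.58 (0.045), in 1 of 9 and 7 of 12. Rpl5 itself passed in 4 of 9 and 11 of 12. The remaining gene, Mrpl33, which the naming rule left out and which was named after its values were seen, was at 0.78 (0.043) and passed in 3 of 9 and 9 of 12.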

How the results depend on the processing

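The count of called members at 3 days (8) was 5 with quantile normalization, 5 with only the compared groups, 13 with DESeq2 and 2 to 15 with a library left out. At 5 days it was 21, and 14 to 25 with a library left out. Between the co-cultures it was 1, and 3 with DESeq2, 0 with thinned reads and 0 to 2 with a library left out. In the main fit 20.0%, 24.0% and 6.91% of all tested genes were called in the 3 comparisons. That share is not given for the other settings, so whether the members' counts follow the whole table there was not tested. Among members with at most 50% of shared 3′-end words, a subset chosen after the values were seen, the counts were 5 and 9 and the medians 0.31 and 0.45. The median at 3 days was 0.082 with quantile normalization and 0.13 to 0.22 with a library left out. At 5 days it was 0.22 to 0.30 and between the co-cultures 0.011 to 0.15.

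Deviations of same-numbered libraries correlated between -0.11 and 0.23, over 0.1 in 4 of 9 pairs, and 4 of 9 matched best with their own number, so the numbers were not taken as pairing. With the replicate block 12 members were called at 3 days, 25 at 5 days and 2 between the co-cultures. The share of all tested genes called with the block is not given here.

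Changes of sign touched only values that were not called. With a library left out, the 3-day change lay between -0.032 and 0.66 for Rpl22l1, -0.067 and 1.25 for Rpl39, -0.28 and 0.45 for Rpl39l and -0.26 and 0.15 for Rpsa. The 5-day change lay between -0.033 and 0.38 for Rpl39l, -0.19 and 0.0033 for Rplp1 and -0.38 and 0.12 for Rps4l. The difference of 5 and 3 days lay between -0.011 and 0.31 for Max, -0.65 and 0.66 for Rpl39, -0.29 and 0.45 for Rpl39l, -0.050 and 0.31 for Rpl7 and -0.13 and 0.39 for Rplp0. Log2 ratios lay between -0.13 and 0.14 for Rpl36al/Rpl36a and -0.90 and 0.10 for Rpl39l/Rpl39 at 5 days. Between the co-cultures they lay between -0.22 and 1.05 for Rpl39l/Rpl39, -0.68 and 0.0023 for Rpl7l1/Rpl7 and -0.092 and 0.51 for Rps4l/Rps4x. At 3 days Rpl39l was at 0.11 with edgeR, 0.0945 with DESeq2 and 0.041 thinned, Rps27 at 0.21 thinned and Rplp1 at -0.30 with quantile normalization, which put Rpl7 at -0.0024 between the co-cultures. The causes were not tested. Rpl21, Rps15a and Rpl30 were too shallow to test.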
